A study of Mus musculus with 2 samples.

Results

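The cells described here are the somatostatin neurons of the mouse preoptic area, picked from 2 droplet single-cell RNA libraries by the number of Sst transcripts in each cell. A barcode was counted as a neuron when it had at least 2000 genes, under 20% mitochondrial counts, at least 10 unique molecular identifiers (UMIs, one per captured transcript) of the synaptic genes Snap25 and Syt1 together, and at most 1 UMI of the oligodendrocyte genes Mog and Ermn. Neurons with 20 or more Sst UMIs were called Sst neurons, and those among them with 5 or more Npy UMIs are called Npy Sst neurons. There were 207 Sst neurons among 8072 neurons and 18368 barcodes. The sleep deprivation plus recovery sleep library held 109 of its 4149 neurons in this class, and the sleep deprivation library held 98 of 3923.

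Somatostatin is a secreted peptide that acts through inhibitory receptors coupled to G proteins, and in the forebrain it is made mostly by neurons that also release GABA. Many forebrain Sst neurons arise from the ventral embryonic subpallium under the transcription factors Nkx2-1 and Lhx6, and a subset makes neuropeptide Y as a second peptide. The preoptic area, at the front of the hypothalamus, takes part in the control of sleep and body temperature and holds many peptide-making cell types.

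The animals of both libraries were C57BL/6J mice aged 9 to 10 weeks, males and females pooled before sequencing. The SD+RS group was kept awake for 6 h and then left to sleep for 2 h, and the SD group was kept awake for 6 h and sampled at once. Neither group carried a transgene or a mutation according to the labels, and they do not state how many mice were pooled. Cells were prepared by Act-seq, a method in which transcription is blocked with an inhibitor while the tissue is dissociated, so that the procedure itself induces fewer activity genes. Each group is 1 library, so no difference between groups could be tested. All intervals below are 95% intervals for counting error alone and say nothing of the spread between animals.

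The SD+RS and SD libraries held 8106 and 10262 barcodes and 123500649 and 132191585 UMIs. The libraries shared 23 barcode sequences, none of them among Sst neurons. Sst neurons had a median of 19073 UMIs and 5225 genes in SD+RS and of 21292 UMIs and 5528.5 genes in SD, close to the other neurons at 21865.5 UMIs in SD+RS and 22282 in SD. The sex makeup differed between the pools. In SD+RS, 88 Sst neurons had Xist and no Y-linked transcript and 14 had the opposite, against 37 and 49 in SD, so cells with only Xist made 86.27% of the called cells in SD+RS and 43.02% in SD. For the genes and sums described in most detail, differences between the libraries are therefore also given for the cells with only Xist. Of all Sst neurons, 5 in SD+RS and 8 in SD carried 3 or more UMIs over 16 defining markers of vascular cells, astrocytes, microglia and oligodendrocyte precursors, and sums that rest on them are given with and without those cells.

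The genes behind the class are shown first by the stretch of 250 bases in front of the RefSeq start of Sst and Npy (GRCm38.p6, 5′ to 3′), because Sst is the textbook gene driven by cyclic AMP through the response element TGACGTCA, which is set in capitals. Sst lies on the minus strand and its window is chr16:23890845-23891094, while Npy lies on the plus strand with the window chr6:49822460-49822709.
Sst: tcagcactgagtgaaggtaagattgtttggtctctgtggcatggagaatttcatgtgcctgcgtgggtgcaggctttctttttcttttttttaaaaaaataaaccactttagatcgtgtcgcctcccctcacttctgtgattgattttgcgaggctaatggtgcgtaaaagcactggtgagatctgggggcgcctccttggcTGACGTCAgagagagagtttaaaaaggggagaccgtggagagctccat
Npy: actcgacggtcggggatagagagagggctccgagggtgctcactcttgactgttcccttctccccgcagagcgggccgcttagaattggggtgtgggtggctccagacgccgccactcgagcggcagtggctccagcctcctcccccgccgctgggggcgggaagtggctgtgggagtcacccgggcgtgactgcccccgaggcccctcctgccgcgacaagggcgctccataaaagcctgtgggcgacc
A search for TGACGTCA, which reads the same on both strands, found it in the Sst window with its first base 48 bases before the start. Such a match was present in 508 of 32851 RefSeq promoter windows (1.55%). The Npy window held neither TGACGTCA nor its shorter form TGACG on either strand, a form that 17.8% of windows hold. The counts themselves carry no information on binding at these sites.

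Sst neurons made 2.627% of neurons in SD+RS (interval 2.162 to 3.16) and 2.498% in SD (2.033 to 3.036), so the intervals overlapped almost entirely. Sst transcripts were very unevenly spread: 90.26% of SD+RS neurons and 89.12% of SD neurons had no Sst UMI at all. Within the class the Sst count in SD+RS ran between 20 and 2394 UMIs with a median of 64, and in SD between 20 and 1989 with a median of 62.5. The 10 cells with the most Sst held 53.65% of the class's Sst UMIs in SD+RS and 48.39% in SD. Summed over cells, Sst stood at 8613 UMIs of that gene per 1000000 UMIs of the class (CPM) in Sst neurons and 10.85 CPM in other neurons in SD+RS, and at 7105 and 9.373 CPM in SD; these are the values that chose the cells.

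Near the threshold the class did not break off sharply. In SD+RS 11 cells had 20 to 24 Sst UMIs and 15 had 15 to 19, and in SD there were 9 and 6 such cells. Just inside the limit, Lhx6 stood at 137.1 CPM in SD+RS and 85.76 CPM in SD; just outside it stood at 47.78 CPM in SD+RS and 84.86 CPM in SD. Npy just inside was at 616.9 CPM in SD+RS and 188.7 CPM in SD, against 215 CPM and 0 CPM just outside.

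The marker genes given for these cells were checked next. Lhx6, a LIM homeobox factor of ventral forebrain GABA neurons (chr2:36081953-36105408 in mm10, minus strand), had 3 or more UMIs in 43 of the SD+RS cells (39.45%) and 45 of the SD cells (45.92%), against 10.89% and 10.3% of other neurons. Calb1, the calcium buffer calbindin (chr4:15881264-15908064), reached 3 UMIs in 61 cells (55.96%) and 52 cells (53.06%), against 42.95% and 40.42% of other neurons. Npy (chr6:49822710-49829507) reached 3 UMIs in 27 cells (24.77%) and 25 cells (25.51%), against 2.847% and 1.804%. The label therefore rests on Sst, with Lhx6 and Npy each marking a subset and Calb1 found almost as widely in other neurons. In a background check, 0 of 1141 SD+RS and 0 of 1745 SD astrocyte barcodes, at median depths of 3238 and 3601 UMIs, held 3 or more Sst, Lhx6 or Calb1 UMIs, which allows shares of up to 0.263% and 0.172%. For Npy, 0 of the SD+RS barcodes and 6 of the SD barcodes (0.3438%) held 3 or more UMIs. At least 1 Sst UMI was seen in 2.103% and 4.756% of those barcodes.

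Most Sst neurons carried the machinery of GABA release. By the vesicular transporters, with at least 2 UMIs of Slc32a1 (GABA and glycine) and at most 1 of Slc17a6 (glutamate) counted as GABAergic, 87 of 109 Sst neurons in SD+RS (79.82%, 71.05 to 86.9) and 79 of 98 in SD (80.61%, 71.39 to 87.9) were GABAergic, against 61.04% and 60.71% of other neurons. The opposite pattern, glutamatergic, was seen in 2 Sst neurons in SD+RS (1.835%, 0.223 to 6.471) and 11 in SD (11.22%, 5.738 to 19.2), against 25.89% and 25.23% of other neurons. The enzymes that make GABA, Gad1 and Gad2, summed to 3 or more UMIs in 107 of 109 and 88 of 98 Sst neurons. All 11 glutamatergic cells of SD lacked Npy at the limit of 5 UMIs.

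**Figure D1:**
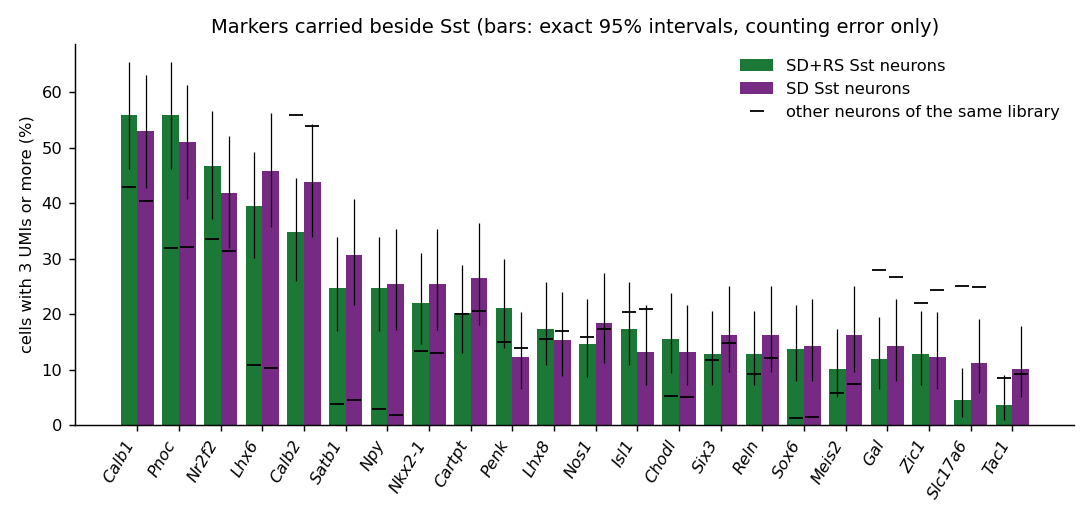
Share of Sst neurons with 3 or more UMIs of each of 22 partner markers (vertical axis, percent), in SD+RS and in SD, with 95% Clopper-Pearson intervals; dashes mark the share in other neurons of the same library. Calb1 and Pnoc reached over 50% of Sst neurons in both libraries, and Lhx6, Satb1, Npy and Sox6 stood well above other neurons while Calb2 and Gal stood below.

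Partner genes divided the class into overlapping sets. Pnoc, the precursor of the peptide nociceptin, was found in 111 of the 207 cells, the nuclear receptor Nr2f2 in 92, the calcium buffer Calb2 in 81, the chromatin organizer Satb1 in 57 and the early forebrain factor Nkx2-1 in 49. Cartpt, a peptide precursor, was found in 48 cells, the enkephalin precursor Penk in 35, neuronal nitric oxide synthase Nos1 in 34 and Chodl in 30. Vip and Sox14 reached 3 UMIs in 0 of the 207 cells, which allows a share of up to 1.449%. Calb2 and Gal were less frequent than in other neurons: Calb2 was in 34.86% of Sst neurons and 56.01% of other neurons in SD+RS and in 43.88% and 53.91% in SD, and Gal in 11.93% and 28.07% in SD+RS and in 14.29% and 26.69% in SD.

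A division by transcription factors ran through the class; it was chosen after the values had been seen and carries no test. Cells with 3 or more Lhx6 UMIs and none of Isl1, Six3 and Meis2 at that level numbered 84 of 207, the reverse pattern was found in 55, both in 4 and neither in 64. Npy at 5 UMIs or more was present in 30 of the 84 Lhx6 cells (35.71%). Among the 55 Isl1, Six3 or Meis2 cells it was in 0, which allows a share of up to 5.455%. It was present in 2 of the 4 cells with both and in 14 of the 64 with neither (21.88%). The shares were alike in the 2 libraries: Lhx6-only cells made 36.7% of Sst neurons in SD+RS and 44.9% in SD, and Isl1, Six3 or Meis2 cells made 26.61% and 26.53%.

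All 88 Sst neurons with 3 or more Lhx6 UMIs were also set against the rest of the class, a split that Lhx6 itself defined. Of 5592 genes, 56 (1%) were over 2-fold higher in these Lhx6 cells in both libraries and 57 (1.02%) were over 2-fold lower. On the higher side was Npas1, a factor of the basic helix-loop-helix family that marks ventral forebrain GABA neurons, at 69.76 CPM in Lhx6 cells and 6.77 CPM in the rest in SD+RS and at 57.2 and 3.173 CPM in SD. Satb1 was at 207.3 and 42.88 CPM in SD+RS and at 225.8 and 30.14 CPM in SD, Bcl11b at 76.63 and 14.29 CPM and at 104.5 and 16.66 CPM, and Lhx8, the LIM factor of basal forebrain cholinergic neurons, at 101.2 and 15.8 CPM and at 73.96 and 15.87 CPM. On the lower side, Adcyap1, which encodes the peptide PACAP, had 0 UMIs in Lhx6 cells of either library and 63.19 CPM in the rest in SD+RS and 82.5 CPM in SD. Cartpt was at 79.58 CPM in Lhx6 cells and 649.9 CPM in the rest in SD+RS, and at 185.4 and 856.7 CPM in SD. Slc17a6 was at 10.81 and 33.1 CPM in SD+RS and at 0.9862 and 84.88 CPM in SD, so that the glutamate transporter lay mainly on the side without Lhx6.

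**Figure D2:**
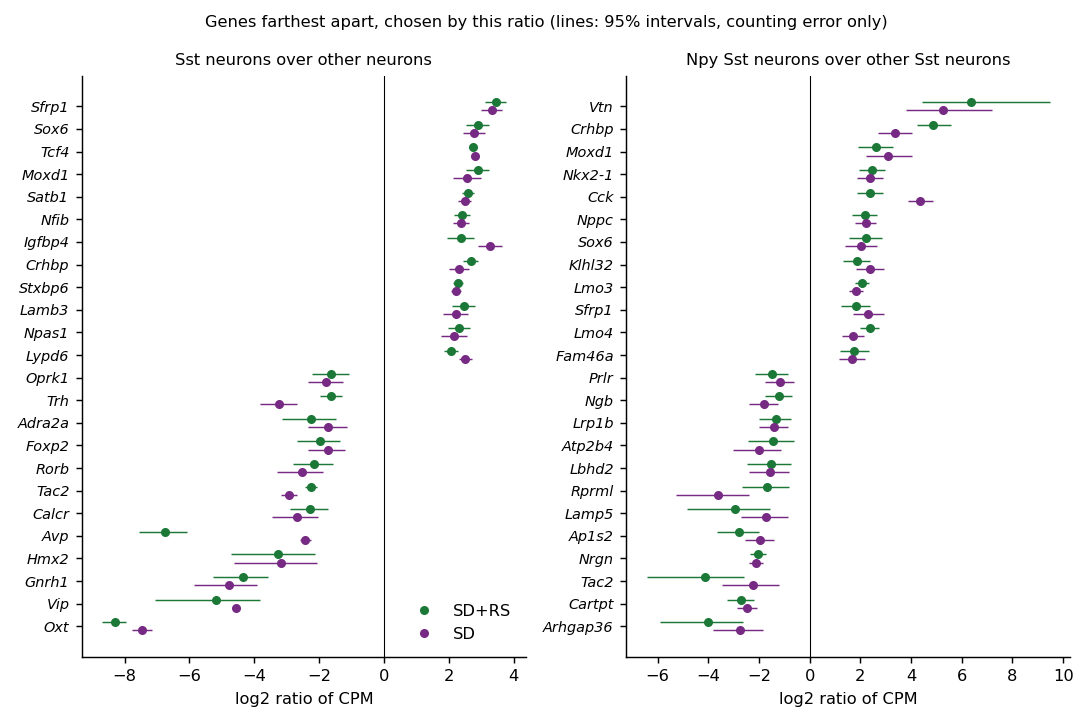
Log2 ratio of CPM (horizontal axis) for the named genes in SD+RS and SD, on the left Sst neurons over other neurons and on the right Npy Sst neurons over other Sst neurons. The values of the 2 libraries lie close together for most genes, with Crhbp at 4.87 and 3.36 for the Npy split. Vip in SD, at 0 UMIs in Sst neurons, is drawn at the floor of 3 UMIs.

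Set against all other neurons, 44 of 6629 genes (0.664%) were over 2-fold higher in Sst neurons in both libraries and 23 (0.347%) over 2-fold lower. The cells were chosen in these libraries, so the counts are descriptive. Several of the higher genes encode transcription factors. Tcf4, a basic helix-loop-helix factor, was at 316.5 CPM in Sst neurons and 47.2 CPM in other neurons in SD+RS, and at 354.8 and 50.6 CPM in SD, log2 ratios of 2.74 and 2.81. Satb1 had log2 ratios of 2.59 and 2.49, Sox6, which acts downstream of Lhx6 in cortical interneurons, 2.90 and 2.78, Nfib 2.42 and 2.38, and Npas1 2.32 and 2.18. Sfrp1, a secreted modulator of Wnt signals, had the highest ratio reached in both libraries among the named genes outside the marker list, 47.7 and 4.38 CPM in SD+RS and 41.8 and 4.18 CPM in SD. Crhbp, the binding protein of corticotropin-releasing hormone, was at 73.3 and 11.5 CPM in SD+RS and at 45.7 and 9.2 CPM in SD.

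Of 12 measured genes of the list of forebrain Sst interneuron genes, 5 were over 2-fold higher in both libraries and none lower, with a list median log2 ratio of 1.300 in SD+RS and 0.958 in SD against −0.006 over all genes in each. Elfn1, a synaptic adhesion protein of cortical Sst cells, had ratios of 1.44 and 1.46, Nxph1, an α-neurexin ligand, 1.27 and 1.66, and Chodl 1.97 and 1.32, whereas Grin3a, another cortical Sst marker, had only 0.31 and 0.47. Lhx6 stood at 112.5 CPM in Sst neurons and 30.35 CPM in other neurons in SD+RS and at 105.5 and 30.32 CPM in SD. Of the 26 measured transcription factors of the list, 7 were higher and 3 lower. Sp9, a factor of GABA neurons, was over 2-fold higher (1.77 and 1.81), and Otp, a factor of peptide neurons of the hypothalamus, was lower (−2.06 and −1.47).

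Other peptides were mostly low in the class. Of 18 measured neuropeptide genes, 2 were over 2-fold higher in both libraries and 6 lower. Npy, which marks part of the class, was at 1122 CPM in Sst neurons and 19.16 CPM in other neurons in SD+RS and at 737.7 and 15.66 CPM in SD. Oxt, encoding oxytocin, was at 26.41 CPM in Sst neurons and 8356 CPM in other neurons in SD+RS and at 36.05 and 6302 CPM in SD. Gnrh1 was at 5.539 and 113.1 CPM in SD+RS and at 4.396 and 121.8 CPM in SD, and Vip had 4 UMIs over the Sst neurons of SD+RS and 0 UMIs over those of SD, against 61.98 and 30.88 CPM in other neurons. Tac2, the neurokinin B precursor, had log2 ratios of −2.24 and −2.93 and Trh −1.62 and −3.23. Calcr, the calcitonin receptor, was lower at −2.29 and −2.69. Pnoc was also above other neurons, at 469.9 CPM in Sst neurons and 188.7 CPM in other neurons in SD+RS. In SD it was at 317.4 and 181.5 CPM and did not pass 2-fold. None of the 14 measured genes for peptide processing and secretion passed 2-fold in either direction in both libraries.

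In the authors' deposited table of cluster markers for both libraries together, Sst led cluster i4, where 37.1% of cells had an Sst UMI. The leading genes of that cluster in the authors' deposited table were Sst, Npy, Tcf4, Satb1, Lhx6 and Gad1. All are also higher in the Sst neurons chosen here, Sst because it chose the cells. Both sets of cells come from the same 2 libraries, so the overlap is not independent. A second cluster of the authors' deposited table, i14, listed Sst in 32.7% of cells and was led by Nfix, Calb1 and Sst. The cells of those clusters were not matched to the cells chosen here.

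The Npy Sst neurons numbered 22 of 109 in SD+RS (20.18%, 13.1 to 28.95) and 24 of 98 in SD (24.49%, 16.36 to 34.21), so their share did not differ beyond counting error. Their Npy counts were between 5 and 474 UMIs in SD+RS with a median of 93, and between 7 and 171 in SD with a median of 54.5. Npy was close to all or none: 79 of the 109 Sst neurons in SD+RS and 67 of the 98 in SD had no Npy UMI. Only 6 cells in SD+RS and 2 in SD had 2 to 4 Npy UMIs, just under the limit, and 1 and 3 had 5 to 9. Npy Sst neurons also had more Sst, with medians of 216 UMIs in SD+RS and 272.5 in SD, at slightly lower depth (16578 and 16702 UMIs per cell, against 20015 and 21954.5 in other Sst neurons). Outside the class, 82 other neurons in SD+RS (2.03%) and 51 in SD (1.333%) had 5 or more Npy UMIs.

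**Figure D3:**
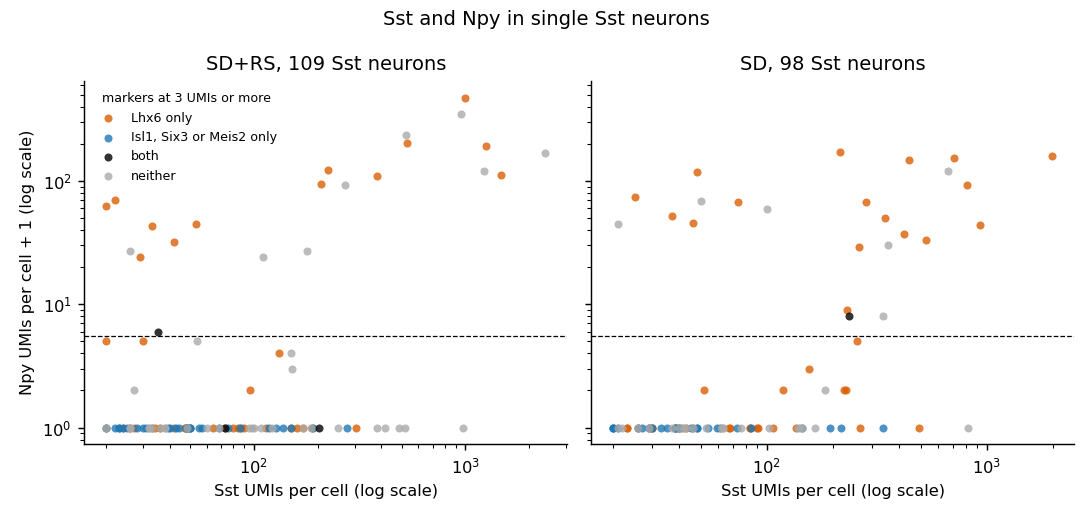
Sst UMIs (horizontal, log axis) against Npy UMIs plus 1 (vertical, log axis) of each Sst neuron, SD+RS left and SD right, coloured by Lhx6 or Isl1, Six3 or Meis2. The dashed line marks 5 Npy UMIs. The cells with Isl1, Six3 or Meis2 but not Lhx6 all lie under it, and most of the cells above it carry Lhx6.

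Between Npy Sst neurons and other Sst neurons, 31 of 2934 genes (1.06%) were over 2-fold higher in both libraries and 16 (0.545%) lower, again in the contrast that chose the cells. Without cells with markers of other types, 25 of 2582 genes were higher and 12 lower. Crhbp, next to Npy itself, was at 349.3 CPM in Npy Sst neurons and 11.98 CPM in other Sst neurons in SD+RS and at 155.9 and 15.16 CPM in SD. Nkx2-1, the factor that sets ventral forebrain identity, was at 166.4 and 30.2 CPM in SD+RS and at 170.1 and 32.6 CPM in SD. Sox6 (log2 2.21 and 2.02), the LIM-only proteins Lmo3 (2.06 and 1.82) and Lmo4 (2.36 and 1.71), the copper enzyme homologue Moxd1 (2.60 and 3.10), Sfrp1 (1.81 and 2.31) and Nppc, encoding C-type natriuretic peptide (2.17 and 2.21), were higher too. Vtn, a pericyte gene, ranked high with 37 UMIs in SD+RS and 42 in SD, but all of those UMIs were in cells with markers of other cell types.

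Genes that mark the Sst and nitric oxide synthase neurons of the cortex were among those with higher levels in Npy Sst neurons. Chodl was at 199.3 CPM in Npy Sst neurons and 41.65 CPM in other Sst neurons in SD+RS and at 99.22 and 33.13 CPM in SD, and Nos1 at 100.8 and 45.3 CPM and at 117.4 and 35.94 CPM. Cort, encoding the peptide cortistatin, was sparse, with 15 UMIs in Npy Sst neurons and 5 in other Sst neurons in SD+RS and 8 and 1 in SD. Npy2r, a receptor for neuropeptide Y, had ratios of 1.20 and 1.21, and of 0.98 and 1.31 without cells with markers of other types. Of the 7 measured genes of the interneuron list 4 were over 2-fold higher and none lower, with medians of 1.154 and 1.582 against −0.055 and −0.027 over all genes. Without cells with markers of other types, 3 of 6 measured genes of that list were over 2-fold higher and 0 lower. Among single cells with 3 or more Npy UMIs, 36 of 52 also had Lhx6 (69.23%, against 33.55% of the rest of Sst neurons), 55.77% had Nkx2-1 (12.9% of the rest) and 34.62% had Sox6 (7.097% of the rest). Isl1 was found in 1 of the 52 and Six3 in 0 of 52, which allows a share of up to 5.769%.

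On the lower side in Npy Sst neurons, Cartpt was at 72.67 CPM, against 475.9 CPM in other Sst neurons, in SD+RS, and at 123.5 and 677.8 CPM in SD. Nrgn, a calmodulin-binding protein of projection neurons, was at 220.4 and 896.6 CPM in SD+RS and at 243 and 1059 CPM in SD. Arhgap36 (−4.00 and −2.75), Tac2 (−4.15 and −2.24) and Prlr, the prolactin receptor (−1.47 and −1.17), were lower as well. Summed Calb1 (0.27 and 0.03) and Pnoc (−0.03 and 0.03) differed little. By cells with 3 or more UMIs, Calb1 was in 67.31% of the 52 cells with that level of Npy and in 50.32% of the rest, and Pnoc in 51.92% and 54.19%.

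The comparison of SD+RS with SD within Sst neurons asked which transcripts differ after 2 h of sleep. Of 6624 genes with at least 100 UMIs over both libraries, 68 (1.03%) were over 1.5-fold higher in SD+RS and 163 (2.46%) over 1.5-fold lower; the median log2 ratio of all genes was −0.008. The Sst transcript itself was at 8613 CPM in SD+RS and 7105 CPM in SD, a log2 ratio of 0.28 (0.25 to 0.31), and Npy at 1122 CPM and 737.7 CPM (0.60, 0.52 to 0.69). Among cells with only Xist the ratios were 0.26 for Sst and 0.60 for Npy. Since both genes set the class and a few cells hold most of their UMIs, these values are descriptions only.

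The 3 genes of the cold-inducible list all had ratios above 0, and 2 of them were over 1.5-fold higher in SD+RS. Srsf5, a splicing factor, was at 435.4 CPM in SD+RS and 270.4 CPM in SD in Sst neurons (log2 0.69, 0.54 to 0.83) and had a ratio of 0.57 in other neurons. Rbm3, an RNA-binding protein induced by cold, was at 102.2 and 63.75 CPM (0.68, 0.38 to 0.99; other neurons 0.37), and Cirbp, its relative, at 273.1 and 191.2 CPM (0.51, 0.34 to 0.69; other neurons 0.49). In cells with only Xist, Srsf5 had 0.54 and Rbm3 1.03, while Cirbp had 0.19 with an interval of −0.05 to 0.44 that includes no difference.

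The circadian clock list leaned the other way. All 7 measured genes of 17 had ratios below 0 in Sst neurons, with a median of −0.531. Of these, 3 were over 1.5-fold lower, against 2.46% of all genes in Sst neurons. In other neurons the median was −0.238, and 0 of 17 passed 1.5-fold. The 2 medians cover different sets of genes. The smaller UMI sums of Sst neurons also carry more counting error, so medians and counts are not directly comparable between the classes. Bhlhe41, a repressor of the clock, was at 23.86 CPM in SD+RS and 52.76 CPM in SD (−1.15, −1.63 to −0.68), against a ratio of −0.20 in other neurons. Per3 was at 16.62 and 35.17 CPM (−1.08; other neurons −0.25), and Dbp, a clock output factor, at 31.53 and 50.12 CPM (−0.67; other neurons 0.04). Tef was at 55.81 and 78.69 CPM and Nr1d2 at 36.21 and 52.32 CPM. In cells with only Xist, Bhlhe41 had −0.67 (−1.35 to 0.02), Per3 −0.52, Dbp −0.53 and Nr1d2 −0.91 (−1.48 to −0.32). The SD+RS mice were taken 2 h later in the sequence of treatments and the labels give no time of day, so sleep and time of day cannot be told apart.

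**Figure D4:**
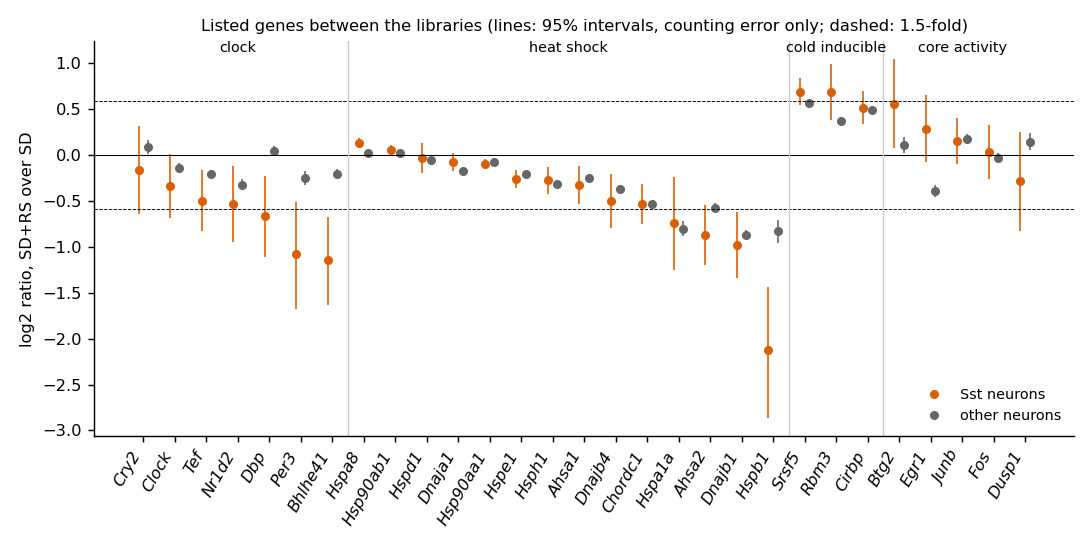
Log2 ratio of CPM, SD+RS over SD (vertical axis), for the measured clock, heat shock, cold-inducible and core activity genes, in Sst neurons (orange, with 95% counting intervals) and in other neurons (grey, with the same kind of interval). The 7 clock genes lie below 0 in Sst neurons and the 3 cold-inducible genes above 0.

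Heat shock genes were lower or near 0. Of 14 measured members 0 were over 1.5-fold higher and 4 lower, with a median of −0.300 in Sst neurons and −0.339 in other neurons, and −0.080 in the Sst neurons with only Xist. Dnajb1, a co-chaperone, had −0.98 (other neurons −0.87), and Hspa1a, the inducible chaperone, was at 23.43 CPM in SD+RS and 39.13 CPM in SD (−0.74), while the constitutive Hspa8 was at 2655 and 2426 CPM (0.13). Among cells with only Xist, Dnajb1 had −0.94, Hspa1a −0.13 (−0.99 to 0.79) and Hspa8 0.11. Hspb1 had the lowest ratio, −2.13, but 97.85% of its SD UMIs were in cells with markers of other cell types, and the 3 UMIs in SD+RS and 2 in SD outside those cells are too few for a ratio.

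The peptide genes showed larger ratios that rested on few cells. Penk was at 192.6 CPM in SD+RS and 80.01 CPM in SD (1.27, 1.02 to 1.52; other neurons 0.31), with 23 of 109 cells (21.1%) and 12 of 98 cells (12.24%) at 3 or more UMIs. Pnoc was at 469.9 and 317.4 CPM (0.57, 0.43 to 0.70; other neurons 0.06), and its ratio among cells with only Xist was 1.22. Gal ran the other way, at 138 CPM in SD+RS and 703.4 CPM in SD (−2.35), yet 13 and 14 cells had 3 or more UMIs and the ratio among cells with only Xist was 0.17. Tac1 was at 11.93 and 136.7 CPM (−3.52), with 4 cells in SD+RS and 10 in SD at 3 UMIs, and −0.94 with only Xist. Whether the different peptide mix is a change within cells or a difference in which Sst cells were caught cannot be told apart here.

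Genes of dense-core vesicles were measured in all 14 cases of the list, and 1 was over 1.5-fold higher and 0 lower, with a median of −0.041 in Sst neurons and 0.062 in other neurons. The gene past the limit was Vgf, a secreted granin-like protein whose transcript follows neuronal activity, at 625.4 CPM in SD+RS and 400.5 CPM in SD (0.64, 0.52 to 0.76; other neurons 0.10). Vgf had a ratio of −0.20 in Npy Sst neurons and 0.82 in other Sst neurons, and 1.15 in the Sst neurons with only Xist. Scg2, the granin secretogranin II, was at 1036 and 852.4 CPM (0.28, 0.19 to 0.37; other neurons 0.13). Gad2 was at 904.9 and 698.6 CPM (0.37, 0.28 to 0.47; other neurons 0.02), and Synpr, a synaptic vesicle protein, at 150 and 97.16 CPM (0.63, 0.38 to 0.88; other neurons −0.16). With only Xist, Scg2 had 0.62, Gad2 0.63 and Synpr 0.85.

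The estrogen receptor Esr1 had 82 UMIs in SD+RS and 37 in SD (1.10, 0.53 to 1.70), against 0.60 in other neurons, and 1.38 in the Sst neurons with only Xist. Calb1 was at 529.1 and 403.6 CPM (0.39, 0.27 to 0.52), and its ratio among cells with only Xist was 1.70. Egr1, an activity-induced zinc finger factor, was at 62.2 and 51 CPM in Sst neurons (0.29, −0.08 to 0.65), while its ratio in other neurons was −0.39. Fos was at 83.93 and 82.21 CPM (0.03, −0.27 to 0.33), so no difference was detectable at this depth. With only Xist, Egr1 had 0.12 (−0.42 to 0.69) and Fos 0.07 (−0.38 to 0.53). Outside the lists, Sncg, encoding γ-synuclein, had 59 UMIs held by 6 Sst neurons in SD+RS and 307 held by 10 in SD, a ratio of −2.43 over all cells and −3.53 among cells with only Xist. Apoe, a glial lipid carrier, had −1.68, with 86.47% of its SD+RS UMIs and 89.04% of its SD UMIs in cells with markers of other types.

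Transcripts of other cell types were few but uneven. The summed astrocyte markers were at 216.4 CPM in SD+RS and 277.4 CPM in SD in Sst neurons, and the endothelial markers at 22.15 and 87.05 CPM. Markers of oligodendrocyte precursors were at 13.21 and 115.6 CPM, but 262 of the 263 UMIs in SD were of C1ql1 and lay in 6 other Sst neurons, with Pdgfra at 0 in SD. Microglial markers were at 40.05 and 1.319 CPM, with 1 cell of SD+RS above 2 UMIs and with Cx3cr1 and Ctss at 0 in SD. In Npy Sst neurons the astrocyte markers were at 201.6 and 283.5 CPM, against 219.7 and 275.7 CPM in other Sst neurons. The endothelial markers were at 114.9 and 131.6 CPM in Npy Sst neurons, against 1.562 and 74.69 CPM in other Sst neurons, and the mural markers at 150 and 131.6 CPM, against 2.603 and 9.546 CPM. Of the Npy Sst neurons, 1 in each library had 3 or more endothelial UMIs, and 2 in SD+RS and 1 in SD had 3 or more mural UMIs.

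Activity was then summed over a core list of 14 immediate early genes, a group that strong synaptic input switches on briefly. In Sst neurons 5 of the 14 had enough UMIs to be read singly, and 0 were past 1.5-fold in either direction. The sum was 413.3 CPM in SD+RS and 365.3 CPM in SD over Sst neurons (log2 0.18, 0.04 to 0.31) and 266.1 and 265.7 CPM over other neurons (0.00). Over all cells, Sst neurons thus had a sum above other neurons in both libraries, by 0.64 in SD+RS and 0.46 in SD on the log2 scale. Without the cells that carry markers of other types the excess was 0.59 and 0.28. Other Sst neurons alone had log2 ratios to other neurons of 0.205 and 0.281, and of 0.210 and −0.074 (−0.313 to 0.155) with only Xist. With only Y-linked transcripts, Sst neurons had 219.8 CPM and other neurons 243.2 CPM in SD+RS, and 359.6 and 228.2 CPM in SD. The 10 Sst neurons with the most core activity UMIs held 49.18% of those UMIs in SD+RS and 56.56% in SD. Cells with markers of other cell types held 16.91% of the sum in SD+RS Sst neurons and 33.09% in SD, and without them the sums were 357.2 and 262.1 CPM (0.45, 0.29 to 0.61) in Sst neurons and 237.1 and 216.7 CPM (0.13) in other neurons. Among cells with only Xist the ratio was 0.13 (−0.07 to 0.34) in Sst neurons and 0.00 in other neurons.

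Over all cells the sum was higher in Npy Sst neurons than in other Sst neurons in both libraries, but among SD cells with only Y-linked transcripts it was lower. It was 893.1 CPM in SD+RS (805.7 to 987.5) and 518.4 CPM in SD (456.8 to 585.9), a log2 ratio of 0.79 (0.55 to 1.02), against 306.7 and 322.9 CPM in other Sst neurons (−0.07, −0.24 to 0.09). Cell by cell, the median was 767.3 per 1000000 UMIs in SD+RS and 264 in SD for Npy Sst neurons, and 116.4 and 117.5 for other Sst neurons. Of the 22 Npy Sst neurons of SD+RS 16 had a Fos UMI (72.73%) and of the 24 of SD 12 had one (50%), with overlapping intervals of 49.78 to 89.27 and 29.12 to 70.88. With every cell thinned to 2000 UMIs the share with Fos was 24.36% in SD+RS and 19.76% in SD for Npy Sst neurons, 9.044% and 9.857% for other Sst neurons, 8.133% and 7.771% for other neurons, and 3.979% and 5.235% for astrocyte barcodes. Without cells with markers of other types, the thinned share was 18.05% and 14.32% for Npy Sst neurons. It was then 9.013% and 8.012% for other Sst neurons and 7.752% and 6.834% for other neurons. The share before thinning in Npy Sst neurons was 68.42% and 42.86% without those cells.

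Junb was at 318.8 CPM in SD+RS and 170.1 CPM in SD in Npy Sst neurons (0.91, 0.50 to 1.32) and at 75.5 and 90.41 CPM in other Sst neurons (−0.26, −0.59 to 0.07). Jun was at 199.3 and 125.5 CPM (0.67, 0.18 to 1.16) and at 56.75 and 74.69 CPM (−0.40, −0.78 to −0.02). Egr1 was at 138.3 and 81 CPM in Npy Sst neurons and at 45.3 and 42.68 CPM in other Sst neurons. Fos was at 159.4 and 133.6 CPM in Npy Sst neurons (0.25, −0.26 to 0.77) and at 67.17 and 67.95 CPM in other Sst neurons. Cells with markers of other types held 48.53% of the Fos UMIs of Npy Sst neurons in SD+RS and 51.52% in SD. They held 30.88% and 34.52% of the Junb UMIs there. In other Sst neurons they held 1.55% and 31.4% of the Fos UMIs and 4.138% and 18.63% of the Junb UMIs. Among cells with only Xist, Junb had a ratio of 0.50 (−0.02 to 1.03) in Npy Sst neurons and −0.03 in other Sst neurons, and Fos −0.12 and 0.49, all but that of Jun in Npy Sst neurons (1.22, 0.38 to 2.13) with intervals that include 0.

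The ratio in Npy Sst neurons moved with the sex makeup of the cells. Without the 3 Npy Sst neurons in each library that carry markers of other types, both sums were lower, at 621.1 CPM in SD+RS and 335.7 CPM in SD, and the ratio was 0.89 (0.58 to 1.20). Over the 18 Npy Sst neurons of SD+RS and 12 of SD with only Xist the sums were 691.5 and 592.4 CPM (0.22, −0.09 to 0.54), and the cell medians were 767.3 and 774.7. With both restrictions together the ratio was 0.37 (0.005 to 0.74). The 9 Npy Sst neurons of SD with only Y-linked transcripts had a sum of 220 CPM, against 380.9 CPM in the 40 such other Sst neurons of SD, with 8 of the 9 cells under 200 UMIs per 1000000, and SD+RS had 1 such cell, at 532.7. The sex makeup and the sleep state cannot be told apart in the ratio over all Npy Sst neurons. In other Sst neurons with only Xist the ratio was 0.29 (0.02 to 0.56). In the contrast that chose the cells, the sum in Npy Sst neurons stood above that in other Sst neurons by 1.54 in SD+RS and 0.68 in SD on the log2 scale. These values were 1.03 and 0.47 without cells with markers of other types, and 1.18 and 1.25 among cells with only Xist.

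**Figure D5:**
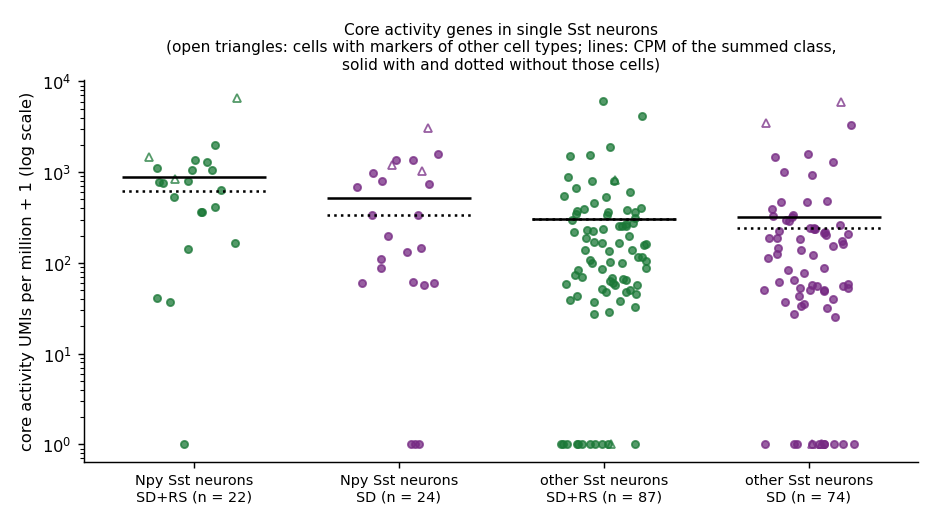
Core activity UMIs per 1000000 UMIs, plus 1 (vertical, log axis) of each cell in Npy Sst neurons and other Sst neurons of SD+RS and SD; open triangles are cells with markers of other cell types, and solid and dotted lines give the summed CPM with and without them. Npy Sst neurons of SD+RS lie highest, with a median of 767.3, and the other Sst neurons of both libraries have medians of 116.4 and 117.5.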

How the data were processed

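The authors deposited UMI counts per gene and cell barcode for 2 libraries of 31054 genes, made with Cell Ranger 3.0.2 per the file headers and on mm10 per the submitters' processing notes, which also name Seurat 4.0.4. The marker tables that the authors deposited give p-values over cells and a fold taken here as natural log, although no source states the base. The fraction of a cluster's cells with a UMI, as the authors deposited it per the file headers, is printed as a percentage.

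Counts were summed over the cells of a class and library and divided by all UMIs of that class (CPM). Sums have exact Poisson intervals, shares Clopper-Pearson intervals, and log2 ratios the exact conditional binomial interval, all at 95%. Depth was 123500649 (SD+RS) and 132191585 (SD) UMIs. Genes entered with at least 100 UMIs over both libraries (SD+RS against SD), 50 in each library (Sst neurons against other neurons) or 30 (Npy split). Fos shares were computed at 2000 UMIs per cell. Doublets stayed in; a caller using simulated doublets marked 4 SD+RS and 7 SD Sst neurons, and leaving them out was an alternative. Genes are named when they belong to a gene list, or are the 12 highest or lowest in both libraries between classes, or the 10 highest or lowest between libraries with at least 200 UMIs and 1 sign in Npy Sst and other Sst neurons. Some are given here. The members and lists were chosen with earlier results of these data known. Leaving out cells with markers of other types, or the top cell, was chosen after seeing the data. Summing and intervals were tested on simulated counts with the counting error that the intervals assume. That test does not cover sums held mostly by a few cells. Python 3.11.15, numpy 2.4.6, scipy 1.17.1, pandas 2.3.3, scikit-learn 1.9.0, scikit-image 0.26.0 and matplotlib 3.10.9 were used.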

Additional observations from a re-analysis of the deposited data

Results flagged for a closer look

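Given here are genes of the lists with at least 100 UMIs over both libraries in each of a pair of cell classes. Their ratios of SD+RS over SD had opposite signs in the pair, with both intervals off 0. Genes with opposite signs alone are left out, while the core activity sum is included on its signs alone. With 1 library per group none of these differences was tested. Between Npy Sst neurons and other Sst neurons, the core activity sum had log2 ratios of 0.785 and −0.074, Jun 0.666 and −0.396, Penk −0.672 and 2.284, and Nts −6.725 and 0.699. The Nts ratios rest on few cells: over the whole class, 3 Sst neurons in SD+RS (2.752%) and 5 in SD (5.102%) had 3 or more Nts UMIs. Among cells with only Xist, Penk had 0.851 and 1.471 and Nts −0.458 and 1.147, so that the signs of Penk no longer differed, and Jun had 1.215 and −0.026. For the core activity sum, the interval of −0.074 included 0 (−0.243 to 0.094). Its ratios were 0.223 and 0.289 with only Xist, and 0.887 and 0.326 without cells with markers of other types. The signs of the sum did not differ in either of these sets of cells.

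Between Sst neurons and other neurons, Crem, an early gene of the cyclic AMP pathway, had 0.595 and −0.172, Gadd45g 0.465 and −0.229, Synpr 0.626 and −0.159, Hpcal1 0.470 and −0.098, Gad1 0.260 and −0.041, Isl1 0.518 and −0.112, and Tacr1, the substance P receptor, 0.540 and −0.203. Nppc had −0.547 and 0.139, and Pcsk1n −0.090 and 0.034. Avp had −4.066 and 0.277, with 84.42% of its SD UMIs in 1 Sst neuron. Trh had 1.467 and −0.134, with 97.4% of its SD+RS UMIs in 1 Sst neuron.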

How the results depend on the processing

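No paired analysis was possible because each group is 1 library. Of 136 alternative values 109 kept their direction and size, 25 moved and 2 reversed; the causes were not tested. With 10 Sst UMIs as the limit, Sst neurons made 3.471% of SD+RS and 3.084% of SD neurons, and with 40 they made 1.784% and 1.784%. The log2 ratio of the core activity sum in Sst neurons was 0.398 with 10 Sst UMIs, 0.486 without doublets, 0.447 without cells with markers of other types, and −0.710 in cells with only Y-linked transcripts; in other Sst neurons it was 0.306, 0.343, 0.326 and −0.928, and 0.289 with only Xist; in Npy Sst neurons it was 0.223 with only Xist and 1.276 with only Y-linked transcripts. The ratio of Sst neurons minus that of other neurons was 0.409, 0.328, 0.317 and, with only Y-linked transcripts, −0.802. That last group holds 14 Sst neurons in SD+RS and 49 in SD, with 1 and 9 Npy Sst neurons, and its Npy share in SD+RS was 7.143%. The heat shock median was −0.080 with only Xist. Genes past 2-fold in Sst neurons numbered 44 with only Xist, 12 with only Y-linked transcripts and 22 with 150 UMIs as the minimum; in Npy Sst neurons 0 with only Y-linked transcripts and 9 with a minimum of 100 UMIs; between libraries 34 with a minimum of 300 UMIs.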
